A study of Mus musculus with 21 samples.

Results

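The genes described here are 9 neuronal specification regulators, measured by RNA-Seq in spiral ganglion neurons (SGNs), the neurons that carry sound information from the cochlea to the brain, and in 2 reference cell types of the inner ear. They are the basic helix-loop-helix (bHLH) genes *Neurog1*, *Neurod1*, *Neurod2* and *Bhlhe22*, the GATA genes *Gata2* and *Gata3*, and the zinc-finger genes *Insm1*, *Scrt1* and *Scrt2*. They were chosen by name, and each was found once, by symbol, among the 52550 genes of the table. The working label of the set also mentions Maf factors, but none of the 9 genes encodes one.

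SGNs came from *ShhCre/+; Rosa26-CAG-loxp-stop-loxp-tdTomato/+* mice, in which Cre from the *Shh* locus switches on the red protein tdTomato, and red cells were picked by hand under a microscope at 5 ages, E15.5 and the postnatal days P1, P8, P14 and P30. Hair cells (HCs) at P12 came from *Atoh1-CreER+* mice with the same reporter, given tamoxifen at P0 and P1, and held both cochlear and vestibular cells. Glia at P8 came from *vGlut3-iCreER/+* mice with the same reporter, given tamoxifen at P2 and P3, and were picked from the SGN area. Each of the 7 groups had 3 libraries, the mice were C57BL/6, and all groups carried the tdTomato reporter.

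A library was made from 69 to 195 picked SGNs, 86 to 125 picked glia or 1200 HCs. The labels call the HCs manually sorted, whereas the methods describe cell sorting by flow cytometry. Picked SGN samples were sequenced only if a quantitative PCR had shown low *Sox10* and *Myo6*, so the SGN libraries were preselected on a glial and an HC gene. The labels do not say that replicates came from separate mice, and p-values measure the spread between these libraries.

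Neurogenin 1, encoded by *Neurog1*, starts the neuronal programme in the ear, and its target *Neurod1* is needed for the survival and differentiation of the neurons that form. Both proteins pair with the broadly expressed E proteins and bind E-boxes, short DNA sites of the form CANNTG, while Id proteins occupy the E proteins and block that pairing. *Neurod2* is a relative of *Neurod1* from the forebrain, and *Bhlhe22* (also called Bhlhb5) is a bHLH repressor of maturing neurons. *Gata3* is required for the formation of the auditory neurons, and loss of a copy causes deafness, while *Gata2* is best known from blood and from parts of the brain and inner ear. *Insm1* is expressed for a limited time in newborn neurons and endocrine cells. *Scrt1* and *Scrt2*, the Scratch genes, encode neuron-restricted relatives of Snail that repress transcription.

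The libraries held 10368240 to 37287489 counts on genes, with a median of 20384100, and 3 counts, the limit that a count of 0 allows, equal 0.0805 to 0.289 CPM, the count scaled to the library's total. These limits cover counting error only. Levels are given as TPM, the count divided by the deposited gene length and scaled to the same sum in every library. The summed TPM of 6 SGN markers was 718 to 4872 in SGN libraries, 164 to 188 in HCs and 18.8 to 188 in glia. Of these sums *Nefl* made up the greater share in HCs, where *Tubb3* and *Prph* were at 0 in 1 and 2 libraries. The 6 glial markers summed to 4.70 to 1323 TPM in SGNs, with 725 to 1323 TPM at P8, and to 7059 to 9447 TPM in glia. The 6 HC markers summed to 12.9 to 226 TPM in SGNs and to 2767 to 3187 TPM in HCs, the highest SGN value being that of P14 replicate 1. In bulk samples, fewer cells of a type and less RNA per cell cannot be told apart.

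Several of the 9 genes are paralogs, and transcripts of the GATA and Neurod pairs are shown first because counts of close relatives are only separable where the sequences differ. The most alike stretches of 90 bases in the coding sequences are printed, read from the GENCODE M21 transcripts, with capitals at the bases that differ.

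In *Gata2* (chr6:88193891-88207032, plus strand, GRCm38) and *Gata3* (chr2:9857078-9890034, minus strand) the most alike stretch had 12 differing bases and began at base 916 and base 820.

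Gata2: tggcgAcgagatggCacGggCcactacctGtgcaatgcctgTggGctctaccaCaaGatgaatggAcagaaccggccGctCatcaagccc

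Gata3: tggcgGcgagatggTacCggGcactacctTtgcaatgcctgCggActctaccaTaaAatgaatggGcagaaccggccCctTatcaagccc

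In *Neurod1* (chr2:79452521-79456751, minus strand) and *Neurod2* (chr11:98325415-98329648, minus strand) it had 8 differing bases and began at base 312 and base 375.

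Neurod1: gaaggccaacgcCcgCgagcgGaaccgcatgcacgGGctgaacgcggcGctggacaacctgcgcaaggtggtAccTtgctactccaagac

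Neurod2: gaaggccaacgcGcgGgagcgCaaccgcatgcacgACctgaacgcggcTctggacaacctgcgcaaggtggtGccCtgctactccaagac

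Over the whole coding sequences, at any position in either, the longest run shared was 25 bases for the Neurod pair and 17 for the GATA pair, and neither pair shared any run of 50 bases in their coding transcripts. Of the other genes, 4 lie at chr13:56250478-56252163, minus strand (*Neurog1*), chr2:146221921-146225020, plus strand (*Insm1*), chr3:18054174-18057517, plus strand (*Bhlhe22*), and chr2:152081529-152095802, plus strand (*Scrt2*), and the first 3 of these have a single exon. Of the 9 genes, 4 lie on chromosome 2, which holds 7.24% of all genes placed. Counts of *Neurod1* and *Gata3* are uncertain where other genes cover them: exons of *Neurod1* share 201 bases with *Cerkl* on the same strand and 154 with *Gm26755* on the opposite strand, and exons of *Gata3* share 77 bases with *9230102O04Rik* on the same strand and 155 with *Gm13256* on the opposite strand. Over the 21 libraries *Cerkl* had 180 counts in all, *Gm26755* 0, *9230102O04Rik* 191 and *Gm13256* 81, and whether counting used the strand is not given in the sources used here.

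**Figure D1:**
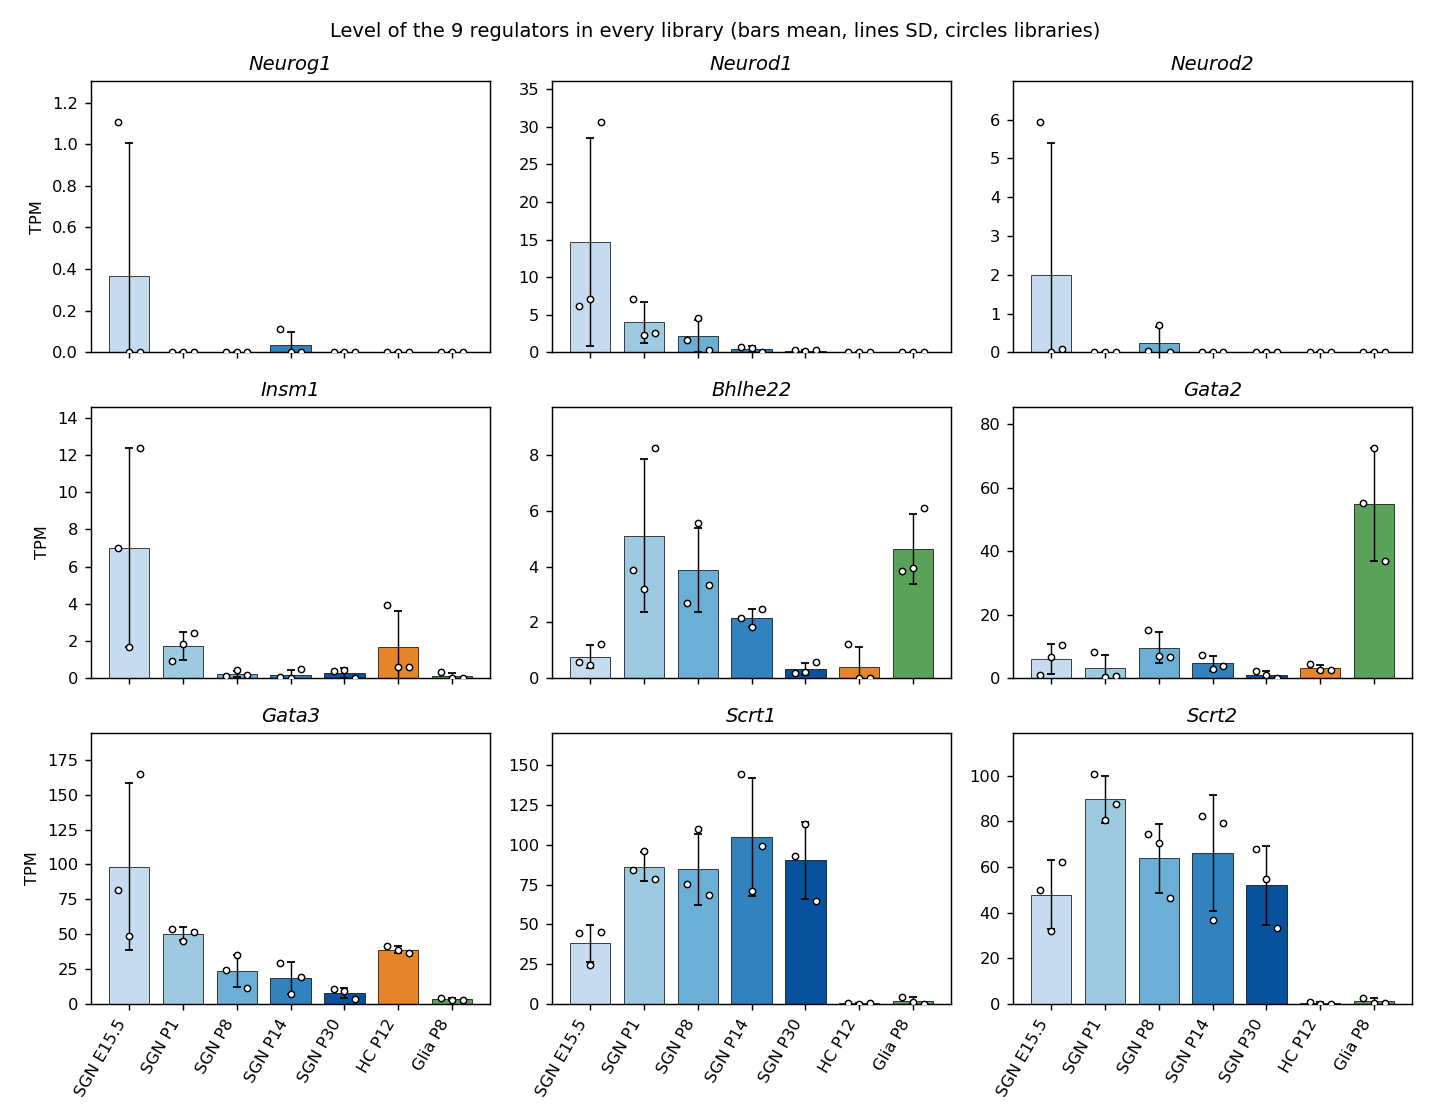
TPM of the 9 regulators (y axis, linear, a separate scale per gene) in the 7 groups (x axis); circles are libraries, bars the mean and lines 1 SD over 3 libraries, cut off at 0. *Scrt1* and *Scrt2* stand at 24.6 TPM or more in all 15 SGN libraries and at 4.61 TPM or less in HCs and glia, *Gata3*, *Neurod1* and *Insm1* have their highest library at E15.5, and *Gata2* has its highest in glia.

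The first question was which regulators changed as SGNs matured. The comparisons between ages used the 15 SGN libraries and the 15113 genes with more than 1 CPM in all 3 libraries of at least 1 age, and a gene was called if it differed more than 2-fold with an adjusted p under 0.05 in limma-voom. Of the 9 regulators, 7 entered this test, and *Neurog1* and *Neurod2* did not. *Insm1* and *Neurod1* were above 1 CPM in all 3 libraries at E15.5 and at P1, and at no later age. They thus entered only through the ages where they were highest, which favours a later fall.

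*Neurog1* and *Neurod2* were barely detected. *Neurog1* had 18 counts (1.10 TPM) in E15.5 replicate 1, 2 counts (0.110 TPM) in P14 replicate 1 and 0 counts in the other 19 libraries. *Neurod2* had 180 counts (5.93 TPM) in E15.5 replicate 1, 3 in E15.5 replicate 3, 2 and 30 in P8 replicates 1 and 2, and 0 in the rest. Both genes thus had their highest level in the same E15.5 library, the one that also carried the highest summed level of 3 haemoglobin genes, 176 TPM against 0 in E15.5 replicates 2 and 3. Whether the 2 are linked was not tested.

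*Neurod1* was highest before birth and fell to traces. Its TPM was 6.22, 7.13 and 30.6 at E15.5, 7.14, 2.27 and 2.54 at P1, 1.60, 4.51 and 0.360 at P8, 0.782, 0.550 and 0 at P14, and 0.273, 0.198 and 0.278 at P30. Neighbouring ages overlapped at each step up to P30, whereas every E15.5 library lay above every library from P8 on. From E15.5 to P30 it fell by 5.33 on the log2 scale (SE 1.24, adjusted p = 0.00279). Its log2 fold change from E15.5 to P1 was -2.13 (SE 0.68, adjusted p = 0.0524) and did not pass, though it did without E15.5 replicate 1 or P14 replicate 3 (adjusted p = 0.0225 and 0.0390).

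*Insm1* followed a like course. Its TPM was 6.97, 1.68 and 12.4 at E15.5, 0.945, 1.86 and 2.404 at P1, and at most 0.501 in every library from P8 on. All 6 libraries of E15.5 and P1 were above all 9 later SGN libraries. It fell by 5.26 on the log2 scale from E15.5 to P30 (SE 1.23, adjusted p = 0.00282), and none of the single steps passed, the first having a log2 fold change of -2.23 (SE 0.72, adjusted p = 0.0543). The first step passed without E15.5 replicate 2 or P30 replicate 3 (adjusted p = 0.0107 and 0.0410). The change from E15.5 to P30 ranged from -3.65 without P30 replicate 3 to -6.30 without P30 replicate 1, with -5.87 without E15.5 replicate 2 and -5.94 without P30 replicate 2.

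*Gata3* was among the most abundant transcripts of the embryonic neurons, ranked 263 of 52550 genes by mean TPM at E15.5, and its mean was lower at each later age. It stood at 81.8, 48.4 and 165 TPM at E15.5, 54.0, 45.1 and 51.8 at P1, 24.2, 34.8 and 11.5 at P8, 29.7, 7.02 and 19.1 at P14, and 10.9, 8.98 and 3.83 at P30. All 6 libraries of E15.5 and P1 lay above all later ones, and E15.5 and P1 overlapped in TPM, with E15.5 replicate 2 below P1 replicates 1 and 3. In the fit, whose scaling differs from that of TPM, *Gata3* fell by 1.29 on the log2 scale from E15.5 to P1 (SE 0.25, adjusted p = 0.00406) and by 3.37 from E15.5 to P30 (SE 0.35, adjusted p = 1.47e-06). The 3 later steps, in order of age, gave log2 fold changes of -0.80, -0.52 and -0.76 and adjusted p of 0.0743, 0.613 and 0.819. At P30 the gene was still counted 321 to 1104 times per library.

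*Bhlhe22* was highest between P1 and P14. Its TPM was 0.588, 0.474 and 1.23 at E15.5, 3.88, 3.19 and 8.25 at P1, 2.71, 5.56 and 3.34 at P8, 2.16, 1.85 and 2.48 at P14, and 0.199, 0.215 and 0.596 at P30. All 9 libraries from P1 to P14 stood above all 6 libraries of E15.5 and P30. The increase from E15.5 to P1 passed (log2 fold change 2.17, SE 0.62, adjusted p = 0.0341) but no longer did when any 1 of the 6 libraries of these ages was left out, with adjusted p between 0.0547 and 0.0772, or with sample quality weights. The log2 fold change from P14 to P30 was -2.53 (SE 0.76, adjusted p = 0.344). A test of any difference among the 5 ages (F-test) gave an adjusted p of 0.00220.

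*Gata2* differed widely between libraries of the same age. Its TPM was 1.03, 6.59 and 10.4 at E15.5, 8.12, 0.332 and 0.710 at P1, 15.2, 6.97 and 6.76 at P8, 7.41, 3.01 and 3.69 at P14, and 2.26, 0.967 and 0.106 at P30. P1 replicate 1 held 868 counts and P1 replicates 2 and 3 held 28 and 36. No step between ages passed, the largest being from P1 to P8 (log2 fold change 3.01, SE 1.10, adjusted p = 0.0930), and the F-test gave an adjusted p of 0.0861. The F-test passed with sample quality weights, which also called the step from P1 to P8 (log2 fold change 3.63, adjusted p = 0.0242), and without E15.5 replicate 1, P1 replicate 1 or P8 replicate 2 (adjusted p = 0.0309, 0.0453 and 0.0435). Without E15.5 replicate 1 the change from E15.5 to P30 passed too (log2 fold change -3.46, adjusted p = 0.0274, against -2.56 and 0.139 with it).

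The Scratch genes were high throughout. *Scrt1* stood at 44.4, 24.6 and 45.0 TPM at E15.5, 83.8, 96.3 and 78.4 at P1, 75.1, 110 and 68.6 at P8, 144, 71.0 and 99.3 at P14, and 92.7, 113 and 64.8 at P30. All 12 postnatal libraries were above all 3 embryonic ones, and the postnatal ages overlapped one another. *Scrt1* was 2.69-fold higher at P30 than at E15.5 (log2 fold change 1.43, SE 0.25, adjusted p = 0.000315), while the first step alone gave a log2 fold change of 0.74 (SE 0.26, adjusted p = 0.0713).

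*Scrt2* stood at 49.8, 31.9 and 61.9 TPM at E15.5, 101, 80.4 and 87.5 at P1, 74.6, 70.4 and 46.5 at P8, 82.4, 36.9 and 79.4 at P14, and 67.8, 54.6 and 33.3 at P30. Only P1 stood clear of another age, above every E15.5, P8 and P30 library. No comparison between ages passed, the F-test gave an adjusted p of 0.556, and from E15.5 to P30 the log2 fold change was 0.30 (SE 0.26). The study picked *Scrt2* from these libraries for its steady level and for its low level in HCs and glia, so its values are no independent evidence of either. Apart from these libraries, the study reported *Scrt2* in SGNs by in situ hybridization at P1 and by a knockin tdTomato reporter. That reporter was seen in SGNs at embryonic and postnatal ages, and not in HCs or glia.

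Counted together, 2 of the 7 tested regulators were called between E15.5 and P1 (*Gata3* lower, *Bhlhe22* higher), beside 8.26% of all genes, 3.18% being lower and 5.08% higher. None was called in any of the 3 later steps, beside 7.44%, 0.536% and 0.0596% of all genes in limma-voom, and edgeR and DESeq2 called none either. At an unadjusted p under 0.05 there were 2, 0 and 1 of the 7 in these 3 steps. Between E15.5 and P30, 4 were called (*Gata3*, *Neurod1* and *Insm1* lower, *Scrt1* higher), beside 34.6% of all genes, of which 16.2% were lower and 18.4% higher. As *Neurod1* and *Insm1* entered only through E15.5 and P1, a fall was favoured, and their calls are no independent evidence of one. The F-test over ages called 5 of 7 (*Gata3*, *Neurod1*, *Insm1*, *Bhlhe22* and *Scrt1*), beside 37.8% of all genes.

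**Figure D2:**
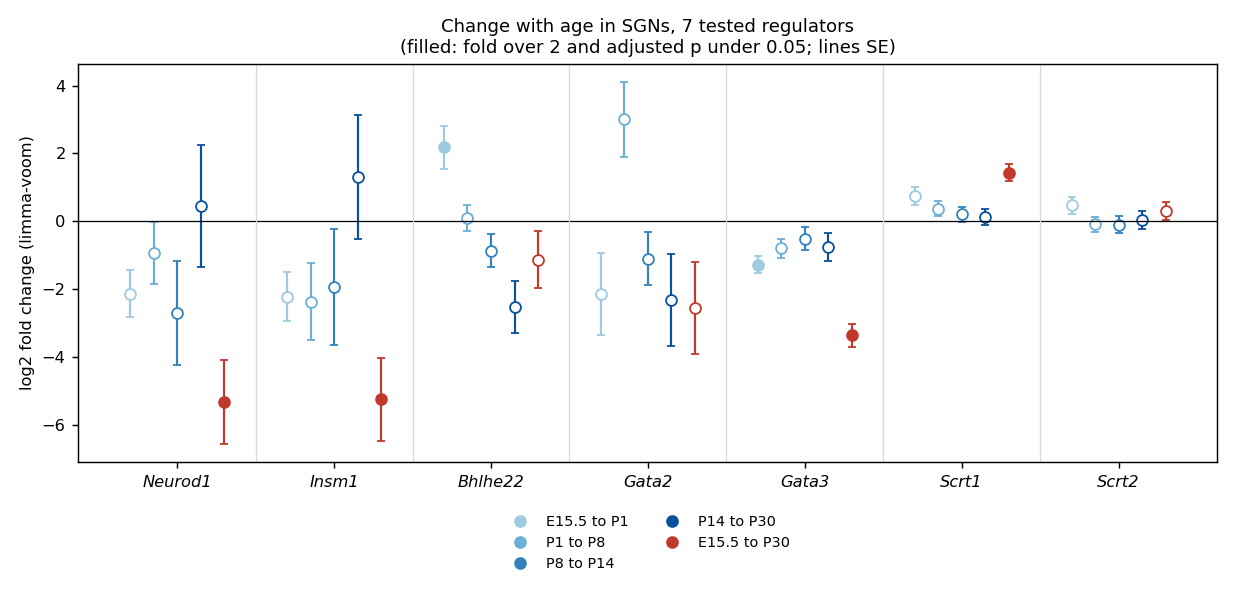
Log2 fold change with its SE (y axis) for the 7 tested regulators (x axis), for each step between ages and for E15.5 to P30, with filled symbols past both thresholds. The filled symbols are *Gata3* and *Bhlhe22* from E15.5 to P1 and *Neurod1*, *Insm1*, *Gata3* and *Scrt1* from E15.5 to P30.

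Since *Gata3* and *Neurod1* fell together, the 250 bases upstream of their RefSeq starts are printed (GRCm38.p6), with E-boxes of the form CANNTG and the GATA motif AGATAA, both searched on both strands, in capitals. RefSeq starts were at hand for 5 of the 9 genes, *Neurog1*, *Neurod1*, *Neurod2*, *Gata2* (2 starts) and *Gata3*. The window of *Gata3* is chr2:9878601-9878850 and that of *Neurod1* is chr2:79456637-79456886, both on the minus strand.

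Gata3: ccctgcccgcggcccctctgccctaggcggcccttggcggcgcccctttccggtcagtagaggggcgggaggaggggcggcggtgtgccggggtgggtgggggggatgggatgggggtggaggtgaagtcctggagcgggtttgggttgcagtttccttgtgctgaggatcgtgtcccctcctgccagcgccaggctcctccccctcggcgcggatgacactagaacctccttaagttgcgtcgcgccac

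Neurod1: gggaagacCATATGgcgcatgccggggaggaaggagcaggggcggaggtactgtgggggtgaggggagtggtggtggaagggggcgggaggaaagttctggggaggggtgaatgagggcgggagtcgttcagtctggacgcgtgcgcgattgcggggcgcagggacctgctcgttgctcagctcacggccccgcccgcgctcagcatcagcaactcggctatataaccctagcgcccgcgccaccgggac

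The *Neurod1* window held 1 E-box, with its first base at position -242 from the start, and the *Gata3* window held none. Of the other 4 windows, that of *Neurod2* held 3 E-boxes and those of *Gata2* and *Neurog1* none, whereas 66.2% of 32851 windows of the same length in the table held at least 1. AGATAA was in none of the 6 windows and in 9.99% of all. The GC content was 52.8% in the *Neurod2* window and 67.2% to 74.0% in the other 5.

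The balance within paralog pairs was followed in each library, since a ratio of 2 genes in a library does not depend on how libraries are scaled. *Scrt1* over *Scrt2* in TPM was 0.727 to 0.893 at E15.5, 0.832 to 1.199 at P1, 1.01 to 1.56 at P8, 1.25 to 1.92 at P14 and 1.37 to 2.07 at P30. *Scrt2* was thus the higher of the pair in all 3 libraries at E15.5 and in 2 of 3 at P1, and *Scrt1* in all 9 libraries from P8 on. The E15.5 ratios did not overlap those of P8, P14 or P30. *Gata3* over *Gata2* was above 1 in all 15 SGN libraries, from 1.59 to 136. The 2 lowest values were at P8 (1.59 and 1.70, beside 4.99 in the other P8 library), the age with the highest summed glial markers, and P14 and P30 reached down to 2.33 and 4.82. The ratio was 9.38 to 15.4 in HCs and 0.0419 to 0.0738 in glia, where *Gata2* was the higher gene. These ratios are a description, without a test.

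**Figure D3:**
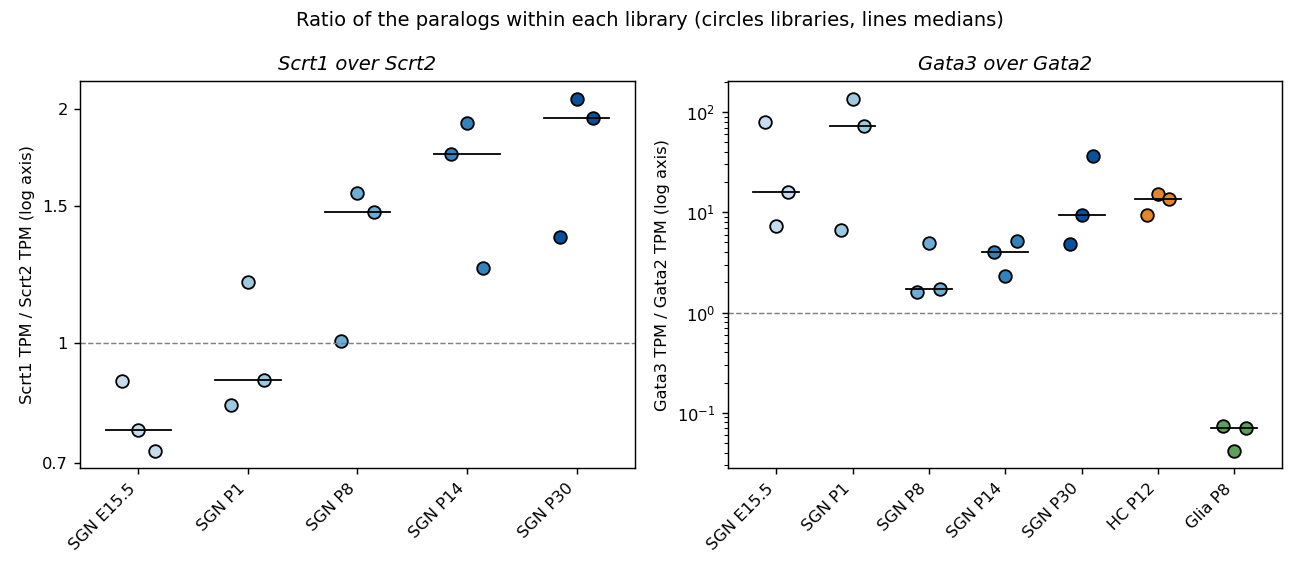
TPM of *Scrt1* over *Scrt2* in the 15 SGN libraries (left) and of *Gata3* over *Gata2* in all 21 libraries (right), both on log axes; circles are libraries, solid lines group medians and dashed lines equal levels. The *Scrt1* ratio has medians of 0.773 at E15.5 and 1.95 at P30, and the *Gata3* ratio is below 1 only in glia.

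The second question was which regulators set SGNs apart from HCs and glia. This fit held all 21 libraries and the 17531 genes with more than 1 CPM in all 3 libraries of at least 1 group, the same 7 regulators were tested, and a call needed a difference of more than 4-fold and an adjusted p under 0.01. Comparisons that use the same HC or glial libraries are not independent of one another. Each cell type came from its own mouse line, and only HCs and glia came from mice given tamoxifen. HCs also differed from SGNs in age, in number of cells and, by the methods, in isolation. Cell type cannot be told apart from these factors. In this fit *Neurod1*, *Insm1*, *Scrt1* and *Scrt2* entered through SGN groups alone, which favours a higher level in SGNs. Against HCs, 4 of the 7 were called for the mean of the 5 SGN ages, all higher in SGNs (*Scrt1*, *Scrt2*, *Neurod1* and *Bhlhe22*), beside 26.8% of all genes, 10.5% being higher. Against glia 5 were called, *Gata3*, *Neurod1*, *Scrt1* and *Scrt2* higher and *Gata2* lower, beside 24.7% of all genes, 14.3% being higher and 10.4% lower. The same 5 were called between SGNs and glia at P8, in the same directions, beside 20.9% of all genes, 13.4% being higher and 7.53% lower. HCs against glia gave 2 calls, both lower in HCs (*Bhlhe22* and *Gata2*), beside 24.4% of all genes, 8.18% being lower.

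*Scrt2* was low outside the neurons. In HCs it stood at 0.834, 0.0921 and 0.178 TPM (14, 2 and 4 counts) and in glia at 2.76, 0.287 and 0.250 TPM (152, 10 and 8 counts), against 31.9 TPM or more in every SGN library. The log2 fold change of the mean SGN was 9.13 against HCs (SE 1.02, adjusted p = 1.73e-07) and 6.12 against glia (SE 0.87, adjusted p = 7.46e-06). Both calls held under each of the 6 other settings and with each library left out, although the value against HCs was 10.01 without HC replicate 1 and 8.53 without HC replicate 2, and that against glia was 5.52 without glia replicate 3.

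*Scrt1* stood at 0.504, 0 and 0.602 TPM in HCs (10, 0 and 16 counts) and at 4.61, 1.51 and 0.0529 TPM in glia (300, 62 and 2 counts), and no HC or glial library reached the lowest SGN library. The study presented *Scrt1* too as a constant SGN-specific gene of these libraries, so these contrasts are no independent evidence. Its rule for constant genes asked for less than 2-fold between ages, whereas *Scrt1* was 2.69-fold higher at P30 than at E15.5 here. Separately, the study reported *Scrt1* in the SGN region by in situ hybridization at P1. The log2 fold changes were 9.96 against HCs (SE 1.28, adjusted p = 1.29e-06) and 5.97 against glia (SE 1.00, adjusted p = 4.86e-05), and a fold against so few counts depends on how the fit treats zeros. The glial libraries differed widely, and the log2 fold change against glia was 7.46 without glia replicate 1, 6.32 without replicate 2 and 4.35 without replicate 3. Against HCs it was 8.33 without HC replicate 2 and 10.8 without either of the other 2. At P8 alone the log2 fold change between SGNs and glia was 6.14, and it was 7.64 without glia replicate 1 and 4.53 without replicate 3. HCs against glia was not called in limma-voom, except without glia replicate 3 (log2 fold change -5.62, adjusted p = 0.00333), whereas edgeR (-4.13, adjusted p = 0.00126) and DESeq2 (-3.90, adjusted p = 4.26e-06) called it with all libraries. The 2 tools also called *Scrt2* there (-3.30 and -3.04).

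Glia replicate 1, which held most of the glial Scratch counts, also carried other SGN transcripts. Its *Scrt1* and *Scrt2* levels were 5.46% and 4.33% of the mean of P8 SGNs, and its 6 SGN markers stood at 5.62% to 17.3% of that mean, with a median of 9.15%. In glia replicates 2 and 3 the median of the markers was 0.822% and 0.756%, with *Scrt1* at 1.78% and 0.0626% and *Scrt2* at 0.449% and 0.392%. The part of picked-along SGN material in these counts was not tested. Without glia replicate 1 the log2 fold change of *Scrt2* against glia was 7.36, and at P8 alone it was 7.44, against 6.20 with it.

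*Neurod1* was close to absent outside SGNs, with 2 counts in 1 HC library and 2 counts in 1 glial library and 0 in the other 4. Pooled CPM of the P8 SGNs was 72.3 times that of HCs (95% interval 19.8 to 600) and 64.4 times that of glia (17.7 to 534), and at E15.5 the ratios were 752 (208 to 6214) and 670 (185 to 5535). These intervals cover counting error only, as if each count were an independent molecule, and leave out the spread between libraries, which ran from 25 to 166 counts at P8 and from 164 to 953 at E15.5. In the fit the mean SGN was higher than HCs (adjusted p = 0.000346, log2 fold change 5.91, or 6.59 without HC replicate 3) and glia (adjusted p = 0.00133). At P14 and P30 the gene was near the same floor in SGNs, with 0 to 35 counts per library. The call against glia was lost without glia replicate 2 or 3 (adjusted p = 0.0176 and 0.0182). The call at P8 (log2 fold change 5.39, or 6.02 without P8 replicate 3) was lost without the same 2 glial libraries (adjusted p = 0.0228 and 0.0231) and without P8 replicate 2 (adjusted p = 0.0141).

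*Gata3* was shared with HCs. It stood at 41.5, 38.3 and 36.4 TPM in HCs, below every P1 library and above every SGN library from P8 on. The mean SGN had a log2 fold change of 0.73 against HCs (SE 0.27, adjusted p = 0.0269), which did not pass. In glia *Gata3* stood at 4.08, 3.04 and 2.59 TPM, and SGNs were higher with a log2 fold change of 2.61 (SE 0.49, adjusted p = 0.000162), although P30 replicate 3 lay within the glial range. The glial levels were 11.01% to 17.3% of the P8 SGN mean. They were above the highest of the 6 SGN markers in glia replicates 2 and 3. In glia replicate 1 *Gata3* was about level with the highest marker (17.35% beside 17.31%).

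*Bhlhe22* was measured in glia too. Its TPM was 3.84, 3.96 and 6.09 in glia, inside the range of the P1 and P8 SGNs, and 1.21, 0 and 0 in HCs (20, 0 and 0 counts). Its log2 fold change was -0.60 between SGNs and glia at P8 (SE 0.58, adjusted p = 0.425), and for the mean SGN it was -1.92 (SE 0.50, adjusted p = 0.00350), just under the 4-fold threshold, which it passed without glia replicate 1 or P30 replicate 3 (log2 fold changes -2.10 and -2.05). It was higher in SGNs than in HCs (log2 fold change 5.45, SE 0.95, adjusted p = 5.98e-05) and lower in HCs than in glia (log2 fold change -7.37, adjusted p = 8.00e-06). HC replicate 1 held all of its HC counts, and these values were 7.39 and -9.30 without that library and 4.48 to 4.54 and -6.39 to -6.45 without replicate 2 or 3. In SGN libraries it reached 58.5% to 120% of the glial mean at P8, and it was above the highest of the 6 glial markers in 14 of 15.

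*Gata2* was the 1 tested regulator that glia held at a higher level than SGNs by these criteria. It stood at 55.2, 72.5 and 36.8 TPM in glia, above all other libraries, of which P8 SGN replicate 1 was the highest, at 15.2 TPM. Glia against the mean SGN gave a log2 fold change of SGNs of -4.59 (SE 0.44, adjusted p = 3.66e-08), and at P8 alone -2.89 (SE 0.50, adjusted p = 0.000105). HCs stood at 4.42, 2.49 and 2.68 TPM, and their log2 fold change against glia was -5.80 (SE 0.97, adjusted p = 6.71e-05).

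Glial markers were read beside *Gata2* within the SGN libraries. In replicates 1, 2 and 3 the 6 markers summed to 69.1, 105 and 205 TPM at E15.5. They summed to 1323, 1300 and 725 TPM at P8 and to 211, 55.1 and 4.70 TPM at P30. At each of these ages *Gata2* ranked the replicates in the same order. At P14 the sums were 857, 226 and 220 TPM, and replicate 1 was highest for both, with replicates 2 and 3 in reverse order. At P1 the orders of the markers and of *Gata2* were opposite. There the 6 markers summed to 58.0, 180 and 109 TPM in replicates 1, 2 and 3, where *Gata2* stood at 8.12, 0.332 and 0.710 TPM. At P8 it stood at 27.8%, 12.7% and 12.3% of the glial mean, inside the range of the 6 glial markers in each library, whose medians were 12.2%, 10.9% and 5.71%. At P30 it stood at 4.12%, 1.76% and 0.193%, again inside their range. It exceeded the highest of the 6 markers in 5 of 15 SGN libraries, all 3 at E15.5, P1 replicate 1 (14.8% beside at most 2.00%) and P14 replicate 3. The summed TPM of 4 connective tissue markers (*Col1a1*, *Col1a2*, *Col3a1* and *Dcn*) was 244 to 408 in glia. In SGN replicates 1, 2 and 3 it was 103, 5.28 and 7.59 at P1 and 60.3, 24.9 and 7.93 at P8. It was 67.1, 2.60 and 8.15 at P14 and 18.7, 0.448 and 0.0752 at P30. Replicate 1 was thus highest at each postnatal age, as it was for *Gata2*. At E15.5 the sum was 26.0, 14.9 and 6.42, the reverse order of *Gata2*. The part of glial or connective tissue RNA in the SGN counts of *Gata2* was not tested beyond these values.

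**Figure D4:**
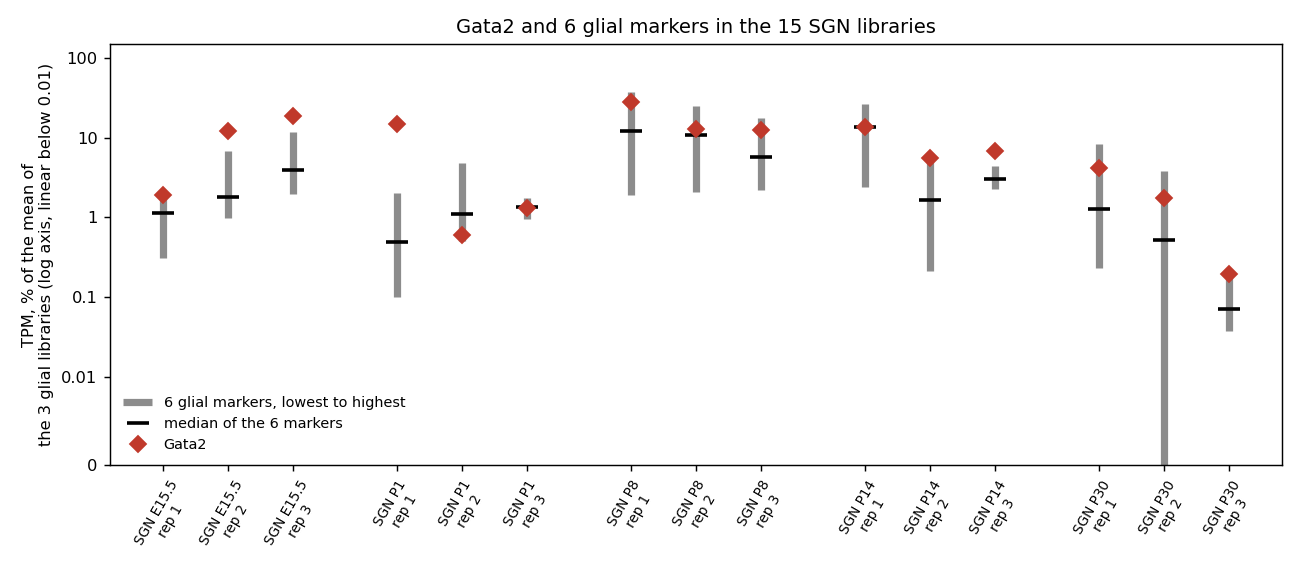
*Gata2* (diamonds) and 6 glial markers (grey bars from the lowest to the highest, black line at the median) in the 15 SGN libraries, each as a percentage of its mean TPM in the 3 glial libraries (y axis, log scale, linear under 0.01). In all P8 and P30 libraries the diamond lies inside the bar, and at E15.5 it lies above.

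*Insm1* stood at 3.91, 0.605 and 0.584 TPM in HCs (60, 12 and 12 counts) and at 0.318, 0 and 0 TPM in glia (16, 0 and 0 counts). HCs overlapped the P1 SGNs and lay above all SGN libraries from P8 on. Its log2 fold change for the mean SGN was -0.08 against HCs (SE 1.03, adjusted p = 0.955) and 2.82 against glia (SE 1.23, adjusted p = 0.0627), and neither passed.

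**Figure D5:**
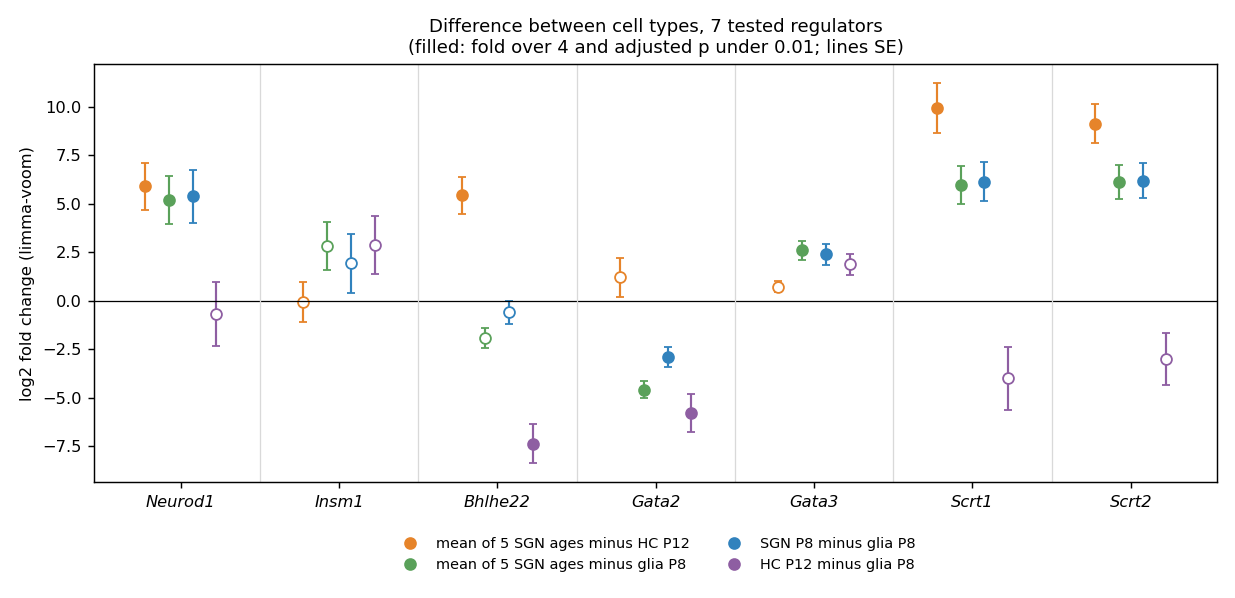
Log2 fold change with its SE (y axis) of the 7 tested regulators (x axis) between cell types, with filled symbols past both thresholds. *Scrt1* and *Scrt2* are at 9.96 and 9.13 against HCs, and *Gata2* is below 0 against glia in the 3 comparisons with glia.

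Partners and relatives of the regulators were read from 4 lists. Of 7 bHLH partners and inhibitors, all 7 were tested and 5 fell from E15.5 to P30, with none rising, beside 16.2% of all genes lower: the E protein gene *Tcf12* (log2 fold change -1.18) and *Id1*, *Id2*, *Id3* and *Id4* (-3.10, -1.86, -2.12 and -1.71). The median of the list was -1.71 on the log2 scale, beside -0.01 for all genes tested. *Id1* had a mean of 44.7 ± 29.1 TPM at E15.5 and 4.48 ± 3.86 at P30 (SD, n = 3). The other 2 E protein genes, *Tcf3* and *Tcf4*, passed in no comparison between ages. Against HCs *Id4* and *Tcf4* were lower in SGNs (log2 fold changes -2.87 and -2.74) and against glia *Tcf3* was (-2.02). These were 2 of 7 against HCs and 1 of 7 against glia, beside 16.2% and 10.4% of all genes lower.

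Among 16 bHLH relatives, 4 were tested between ages. *Nhlh1* and *Nhlh2*, bHLH genes of newborn neurons, fell from E15.5 to P1 (log2 fold changes -2.19 and -1.89) and from E15.5 to P30 (-2.89 and -2.80), as the only 2 of the 4 called, beside 8.26% and 34.6% of all genes. The pair differed in HCs, where *Nhlh1* stood at 85.3 ± 10.9 TPM and *Nhlh2* was listed at 0 in all 3 libraries, against SGN means of 0.664 to 7.999 and 1.10 to 10.2 TPM. *Nhlh1* was lower in SGNs than in HCs (log2 fold change -4.55), and so were *Atoh1*, the HC-forming relative of *Neurog1* (-6.79), and *Olig3*, which had 0 TPM in every SGN group, while *Nhlh2* was higher in SGNs than in both HCs and glia. Of the 6 relatives tested between cell types, 4 were called against HCs, beside 26.8% of all genes, and 1 against glia, beside 24.7%. *Atoh1* and *Olig3* entered the fit between cell types through HCs alone, which favours a lower level in SGNs. *Nhlh2* entered it through SGNs alone, which favours a higher one. The calls of these genes are thus no independent evidence of a difference.

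Of the 9 GATA relatives and cofactors, 4 were tested between ages and 1 was called, *Ldb1*, a bridging protein of GATA complexes, which fell from E15.5 to P1 (log2 fold change -1.10) and from E15.5 to P30 (-1.63), beside the same 8.26% and 34.6% of all genes. The F-test over ages called 2 of the 4, *Ldb1* (adjusted p = 0.00300) and *Zfpm1* (adjusted p = 0.0460), beside 37.8% of all genes. Between cell types 5 were tested and *Zfpm2* (FOG2), a cofactor that binds GATA proteins, was the 1 called, beside 26.8% of all genes against HCs and 24.7% against glia. It stood at 13.3 to 26.3 TPM in the 5 SGN means, at 0.0751 ± 0.0820 in HCs and at 2.50 ± 3.49 in glia (SD, n = 3), with log2 fold changes of 9.57 and 3.41 for the mean SGN.

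Of the 12 zinc-finger relatives and corepressors, 7 were tested. From E15.5 to P30 *Hdac1*, a histone deacetylase, and *Rest*, a repressor of neuronal genes in other cells, fell (log2 fold changes -1.89 and -1.73), and *Gfi1*, an HC gene that is also one of the 6 HC markers used here, rose (2.71), which is 3 of 7 beside 34.6% of all genes. The F-test over ages called 4 of the 7, *Hdac1*, *Hdac2*, the demethylase gene *Kdm1a* (LSD1) and *Rcor2* (adjusted p = 0.00284, 0.0127, 0.0136 and 0.00196), but not *Rest* or *Gfi1*, beside 37.8% of all genes. *Gfi1* had also risen from E15.5 to P1 (3.20), its SGN means stayed at or under 3.27 TPM, and the summed HC markers were 12.9 to 30.0 TPM at E15.5 and 36.2 to 60.2 TPM at P30. The part of HC RNA in this was not tested. *Rcor2*, a corepressor of the LSD1 complex, fell from E15.5 to P1 (-1.73) and was higher in SGNs than in HCs (2.60) and glia (5.15). *Rest* was lower in SGNs than in both (-2.36 and -3.44), with SGN means of 1.53 to 5.81 TPM against 48.2 ± 7.78 in HCs and 37.4 ± 23.1 in glia (SD, n = 3). *Gfi1* was lower in SGNs than in HCs (-6.20). Between cell types 3 of the 7 were thus called against HCs, beside 26.8% of all genes, and 2 of the 7 against glia, beside 24.7%.

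Genes with the most similar course to each regulator were found by Pearson's r of log2 CPM over the 15 SGN libraries, which share age groups and picking, so r is a description. *Gata3* was closest to the guidance receptor genes *Unc5b* and *Ephb2* (r = 0.98 and 0.97) and to *Vcan* (0.97). *Neurod1* was closest to *Bcorl1*, *Dlg3* and *Eri1* (0.95, 0.94 and 0.93), *Insm1* to *Capn11*, *Ahrr* and *Slc25a24* (0.94, 0.92 and 0.91) and *Bhlhe22* to *Plxna1*, *Bdh1* and *Dnmt3a* (0.90, 0.86 and 0.86). *Scrt1* was closest to *Rab18*, *Armc1* and *Usp8* (0.94, 0.94 and 0.94), *Scrt2* to *Gm15516*, *Rac1* and *Gtf2f1* (0.90, 0.89 and 0.83) and *Gata2* to *Ahnak*, *Fbln2* and *Serpine2* (0.90, 0.90 and 0.89). Among the regulators, *Gata3* had r of 0.81 with *Neurod1* and with *Insm1* and of -0.82 with *Scrt1*, and the Scratch pair had r of 0.49.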

How the data were processed

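The authors mapped reads to mm10 with STAR 2.4.0i, assigned them to GENCODE vM15 genes with featureCounts and deposited 1 table of raw counts, with a length per gene. Strand, multimapping and pair settings are not given in the sources used here. Counts of the 9 genes between 1 and 20 were even in 27 of 31 cases (over all genes, the median library had 67.9%), so a count may stand for 1 read of a pair. The 21 libraries were grouped by the labels. Symbols (52403 of 52550 genes) and positions came from GENCODE M21, and sequences from its transcripts and RefSeq.

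Counts were scaled with TMM (edgeR 4.0.16) and tested with limma-voom (limma 3.58.1, R 4.3.3), two-sided, with Benjamini-Hochberg adjustment over all genes tested. edgeR quasi-likelihood, DESeq2 1.42.0, library size alone, no filter, quality weights, a replicate block and leaving out each library were alternatives. The fits were tested on simulated data. The members and lists were chosen with earlier results of these data known. The text names the 9 genes, listed relatives past a threshold, the 3 genes with the highest r per regulator, and markers; overlapping genes were named after their values were seen. A sequence comparison of the Scratch pair is not reported here.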

Additional observations from a re-analysis of the deposited data

How the results depend on the processing

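The number of regulators called, given in the report as 2 from E15.5 to P1, 0 from P1 to P8, 5 against glia, 5 between SGNs and glia at P8 and 2 between HCs and glia, became 1, 1, 2, 2 and 2 with sample quality weights. With library size alone it was 1 from P1 to P8. Between HCs and glia it was 4 with edgeR and 5 with DESeq2. Leaving out 1 library gave 1 to 3 calls from E15.5 to P1, 0 to 0 in each of the 3 later steps, 4 to 5 from E15.5 to P30, 5 to 6 in the F-test, 4 to 4 against HCs, 4 to 6 against glia, 4 to 5 at P8 and 2 to 3 between HCs and glia. Why the calls moved was not tested.

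*Gata3* from E15.5 to P1 and *Gata3*, *Neurod1* and *Insm1* from E15.5 to P30 stayed called under every alternative and with each library left out. *Scrt1* from E15.5 to P30 fell under 2-fold with library size alone (log2 fold change 0.95), a scaling that moved the median of all genes in that comparison to -0.49. With edgeR *Bhlhe22* against HCs and *Gata2* at P8 against glia lost their calls (adjusted p = 0.0157 and 0.0407). With quality weights *Neurod1*, *Gata3* and *Scrt1* against glia did (adjusted p = 0.116, 0.0185 and 0.0148).

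Values that changed sign were all uncalled: *Bhlhe22* from P1 to P8 (log2 fold change -0.12 with library size alone), *Scrt2* from E15.5 to P30 (-0.18, likewise), *Scrt2* from P14 to P30 (-0.092 with quality weights) and *Neurod1* from P14 to P30 (-0.69 with edgeR, -0.68 with DESeq2, -0.020 with the replicate block). With 1 library left out, the log2 fold change ranged from -0.30 to 0.13 for *Scrt2* and from -0.11 to 0.27 for *Bhlhe22* from P1 to P8, from -0.34 to 0.093 for *Scrt2* and -0.012 to 0.42 for *Scrt1* from P8 to P14, from -1.20 to 1.58 for *Neurod1*, -0.060 to 0.37 for *Scrt1* and -0.21 to 0.21 for *Scrt2* from P14 to P30, and from -0.53 to 0.81 for *Insm1* against HCs.

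Libraries with the same replicate number did not all deviate together at any pair of groups (P14 and P30: r = 0.37, 0.22 and 0.08), so the numbers were not taken as pairs, and the replicate block changed no call of a regulator. The replicate 1 libraries had r of 0.36 for P1 and P8, 0.31 for P8 and P14 and 0.37 for P14 and P30. These were above the r of replicates 2 and 3 at the same pairs, and the reason was not tested. Counts of a few reads per library limit *Neurog1*, *Neurod2*, *Neurod1* and *Insm1* after P8.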
